A study of Mus musculus with 4 samples.

Results

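The genes described here encode the heat shock transcription factors HSF1 and HSF2 with the HSF-binding protein HSBP1, both cytosolic HSP90 chaperones with their activator AHSA1, the small heat shock proteins HSPB1, HSPB8 and CRYAB, and the co-chaperone BAG3. They were chosen by name, and every non-control probe of the array that carries one of the 10 gene names was taken, which gave 11 probes out of 39429 probes with 30175 gene names. *Cryab* had a pair of probes and each other gene had 1. RNA came from NIH-3T3:Per2-Luc, a mouse fibroblast line that carries a luciferase reporter driven by the *Per2* promoter in all groups. Each of the 4 conditions was hybridized to 1 single-color array, and all arrays lay on 1 slide. The pulsed cells received 5 mM H2O2 for 10 min (the cOS-pulse, for critical oxidative stress) and were taken 4 h, 20 h or 32 h later. The control cells received 0 mM H2O2, with fresh medium in place of the pulse per the study's methods, and their label gives 4 h. The same control array stands in all 3 comparisons with the control, so these comparisons are not independent of each other. No control array is labelled 20 h or 32 h. In the comparisons at these times, the pulse and the later hour cannot be told apart.

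In unstressed cells HSF1 is held inactive by chaperones, HSP90 among them. When damaged proteins occupy these chaperones, HSF1 forms trimers and binds heat shock elements, which are inverted repeats of the unit GAA or its complement TTC, in the promoters of chaperone genes. Small heat shock proteins hold unfolding proteins in a form that can be refolded, and HSPB8 with BAG3 passes such proteins on to autophagy. Oxidation of proteins by H2O2 is among the stresses known to set off this heat shock response.

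At 4 h after cOS-pulse, *Hspb8* and *Hsp90aa1* were 3.24-fold and 2.33-fold higher than in the control, and 1 of the *Cryab* probes was 2.46-fold lower. With 3 of the 11 probes past 2-fold in either direction, the group was near the share of all compared probes, 19.3%. *Hspb8* and this *Cryab* probe stayed past 2-fold under 5 other scalings of the arrays, and *Hsp90aa1* under 1 of them. A different background correction brought this *Cryab* probe under 2-fold. *Bag3*, *Hsp90ab1* and *Hsf1* were higher by between 1.46-fold and 1.6-fold, under the 2-fold threshold used here. *Hspb1* was well above background at 4 h and on no other array. At 20 h and 32 h none of the 10 probes that could be compared was 2-fold higher than in the control, and *Hspb1* could not be compared. The same *Cryab* probe was 2.04-fold lower at 20 h, and past 2-fold under 1 of the 5 other scalings.

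Promoter sequences (RefSeq, GRCm38.p6, from 250 bases before to 50 bases after the start) were at hand for 6 of the 10 genes, *Hsf2*, *Hsbp1*, *Hspb1*, *Hspb8*, *Ahsa1* and *Bag3*. They were searched on both strands for the 2-unit heat shock elements GAANNTTC and TTCNNGAA and for the 3-unit heat shock elements, which add a further inverted unit at the same spacing and so contain both 2-unit elements. Stretches of 3 promoters are shown because they hold the only matches in these promoters, with the matches in capitals and the coding strand read 5′ to 3′. The *Hspb8* stretch is chr5:116422835-116422964 on the minus strand, the *Hspb1* stretch is chr5:135887769-135887868 on the plus strand, and the *Bag3* stretch is chr7:128523603-128523632 on the plus strand.
*Hspb8*: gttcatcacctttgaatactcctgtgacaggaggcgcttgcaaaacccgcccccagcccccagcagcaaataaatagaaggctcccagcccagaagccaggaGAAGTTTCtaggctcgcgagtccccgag
*Hspb1*: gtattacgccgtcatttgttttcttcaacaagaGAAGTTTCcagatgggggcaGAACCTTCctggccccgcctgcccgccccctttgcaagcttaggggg
*Bag3*: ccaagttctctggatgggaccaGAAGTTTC

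With the start base counted as 1 and the base before it as -1, the match lies at 3 to 10 in *Hspb8* and at 43 to 50 in *Bag3*. The pair of matches in *Hspb1* lies at -117 to -110 and at -97 to -90. All 4 matches are the 2-unit element GAANNTTC, which 7.86% of the 32851 promoters of the table hold, and no promoter of the 6 held TTCNNGAA (8.52% of all) or a 3-unit element (0.603% of all). Any of the searched elements stood in 3 of the 6 promoters and in 15.1% of all. The octamer GAAGTTTC, seen after the matches were read, stands in all 3 promoters with a match. On either strand it stands in 398 promoters of the table (1.21%), which are among the 2582 that hold GAANNTTC. It was picked from these same promoters, so these counts are no test of it. A match is a run of letters and not a shown binding site, and the promoters without one (*Hsf2*, *Hsbp1* and *Ahsa1*) were read only in this window.

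Levels are given as the deposited processed intensity of the probe, in arbitrary units, and ratios as differences of log2 intensity after the 75th percentile of each array was subtracted. Since the 4 h array had a lower 75th percentile than the others, a ratio at 4 h is larger than the plain quotient of the intensities. The error beside a log2 ratio is the scanner software's error for the spots of both arrays. For *Hsp90aa1*, *Hspb8* and the other bright member probes this error was 10% of the intensity on every array, so their ratios all carry 0.20. It covers the spot and not the difference between cultures, and with 1 array a condition no test was run. For comparison, the 228 probes printed in 10 spots and well above background in the control and at 4 h had a median SD of 0.0554 between the log2 ratios of their spots. The 95th percentile of these SDs was 0.331, and each member probe was printed in 1 spot. The direction at 4 h was the same under the 5 other scalings tried (median, quantile, 75th percentile of the commonly detected probes, that is, those well above background on all 4 arrays, spike-in controls, none) for every member probe except those of *Hsf2*, which turned under 4, and *Hsbp1*, which turned under median and spike-in scaling. These scalings lowered the median log2 ratio of all measured probes at 4 h by between 0.12 and 0.40 from its value of 0.17.

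The cells were checked against cell type markers. All 10 fibroblast markers, collagens, *Fn1*, *Vim* and *Pdgfrb* among them, were well above background on each of the 4 arrays. Of the other types, 1 of 5 epithelial, 3 of 4 leukocyte and 2 to 3 of 4 endothelial markers were so on each array. Those detected on all 4 arrays were *Krt8*, *Itgam*, *Cd68*, *Cd3e*, *Pecam1* and *Kdr*, those detected on none were *Epcam*, *Cdh1*, *Krt18*, *Cldn4*, *Ptprc* and *Tek*, and *Cdh5* was detected on all but the 32 h array. Summed signals are given in units of the array's 75th percentile. The fibroblast sum was 653 in the control and 569 at 4 h, and 586 and 596 later. The epithelial sum was 0.586 in the control, 1.27 at 4 h, and 0.753 and 0.703 later, and the endothelial sum was 3.22, 4.29, 4.22 and 4.13 in that order. The leukocyte sum was 21.4 in the control, 32.7 at 4 h, 11.8 at 20 h and 12.2 at 32 h, of which *Itgam* made up 90.9% to 95.4%. The part of these signals in the results was not tested. The number of arrays limits the precision of every value. The array at 4 h had the most probes well above background (59.1%), against 52.7% to 55.2% on the other 3. In such bulk RNA, fewer expressing cells and less RNA in each cell cannot be told apart.

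*Hsf1*, the main transcriptional activator of the heat shock response (probe at chr15:76331320-76331379, mm9), had an intensity of 2932 in the control, 3520 at 4 h, 3332 at 20 h and 3102 at 32 h. Its log2 ratio to the control was 0.55 ± 0.20 at 4 h, above 2 spot errors, and between 0.14 and 0.47 under the other scalings. At 20 h and 32 h the log2 ratios were -0.15 ± 0.20 and -0.10 ± 0.20, within the spot error, and both turned positive with spike-in scaling and without scaling.

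*Hsf2*, a related factor that can form mixed trimers with HSF1 (chr10:57232832-57232891), had intensities of 802 in the control, 686 at 4 h, 1187 at 20 h and 1221 at 32 h. After scaling, the control and 4 h lay within 1 spot error of each other, as did 20 h and 32 h. Its log2 ratios were 0.06 ± 0.20 at 4 h, 0.23 ± 0.20 at 20 h and 0.43 ± 0.20 at 32 h. Of these the last passed 2 spot errors (at 20 h the ratio did so after spike-in scaling or in unscaled values), and it was between 0.42 and 0.61 under the other scalings.

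*Hsbp1*, whose product binds the trimerization domain of HSF1 and is known as a negative regulator, has a probe whose annotated position, chr8:121868865-121869534, spans 670 bases on the genome. Its intensities were 6679 in the control, 6870 at 4 h, 10894 at 20 h and 8271 at 32 h. The log2 ratios of 0.32 ± 0.20, 0.37 ± 0.20 and 0.13 ± 0.20 at 4 h, 20 h and 32 h all lay within 2 spot errors, which that of 20 h passed after scaling by the median or the spike-in controls and in unscaled values. The order of the 4 h and 20 h values thus could not be read at this precision.

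*Hsp90aa1*, the inducible cytosolic HSP90 (chr12:111929248-111929307), had an intensity of 29651 in the control, 56973 at 4 h, 33236 at 20 h and 29889 at 32 h. The array at 4 h was the high one, and the other 3 lay close together. The log2 ratio at 4 h was 1.22 ± 0.20, and 5.13% of the 20392 probes measured on both arrays had a higher one. Under the other scalings it was between 0.82 and 1.10 and stayed past 2-fold under 1 of the 5, the 75th percentile of the commonly detected probes. The log2 ratios at 20 h and 32 h were both -0.17 ± 0.20.

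*Hsp90ab1*, the constitutive cytosolic HSP90 (chr17:45704788-45704847), had intensities of 134584 in the control, 177087 at 4 h, 164427 at 20 h and 149814 at 32 h. Its log2 ratio of 0.68 ± 0.20 at 4 h passed 2 spot errors, with 0.27 to 0.55 under the other scalings. At 20 h (-0.04 ± 0.20) and 32 h (-0.02 ± 0.20) it lay within the spot error, and the sign turned under 4 of the 5 other scalings. *Ahsa1*, whose product stimulates the ATPase of HSP90 (chr12:88614739-88614798), had 26454 in the control, 29790 at 4 h, 29907 at 20 h and 26915 at 32 h. Its log2 ratio was 0.45 ± 0.20 at 4 h, 0.05 to 0.33 under the other scalings, and -0.16 ± 0.20 and -0.15 ± 0.20 later, where spike-in scaling and no scaling turned the sign.

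**Figure D1:**
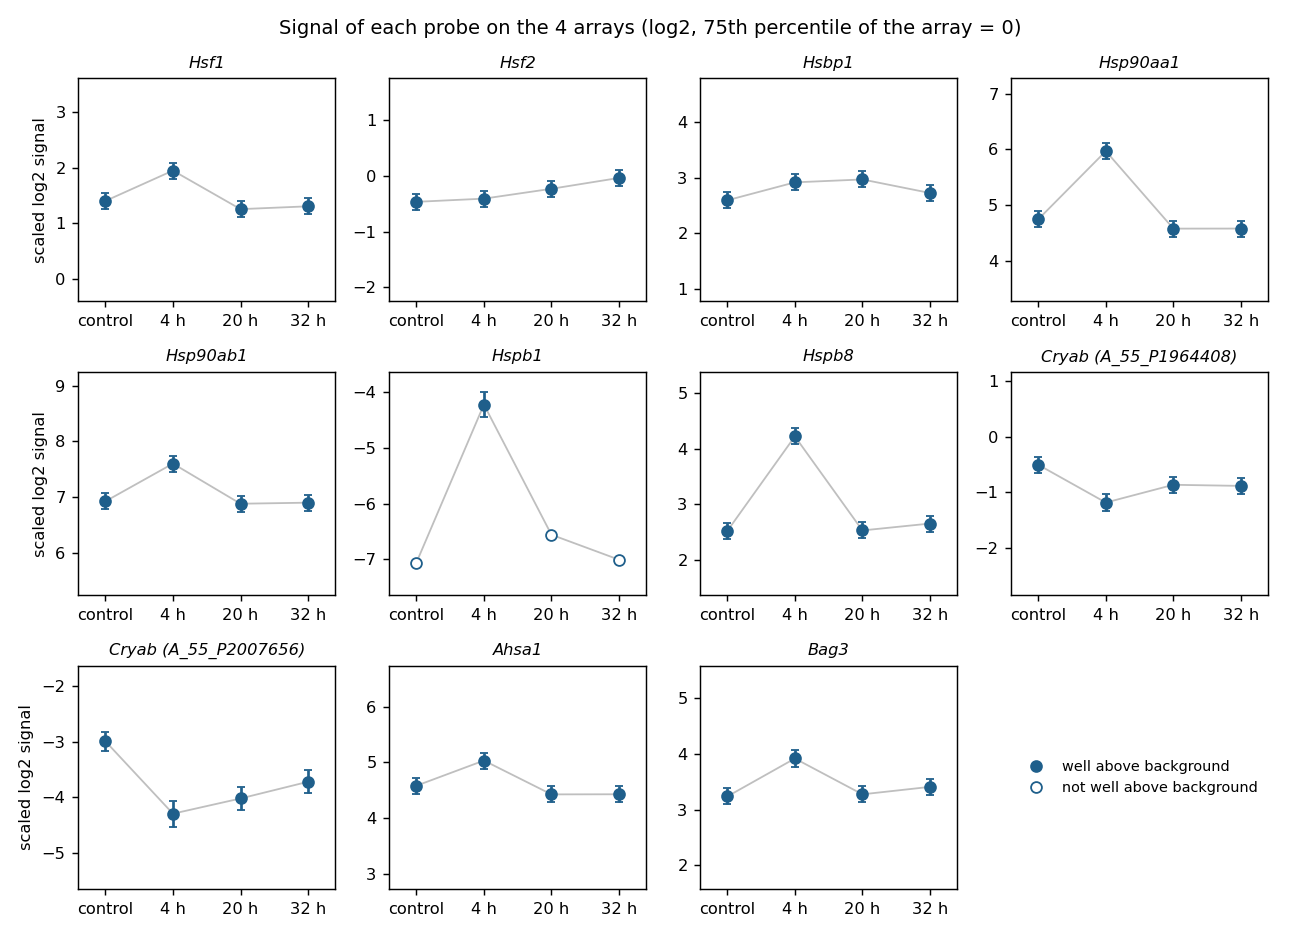
Scaled log2 signal (vertical axis, 0 is the 75th percentile of the array) of each of the 11 probes on the control, 4 h, 20 h and 32 h arrays, 1 array each; bars are the scanner software's spot error, and open circles are signals not well above background, drawn without an error. Each panel has its own offset, so levels are to be read within a panel: *Hspb8* and *Hsp90aa1* stand out at 4 h, both *Cryab* probes are highest in the control, and *Hspb1* has a filled circle only at 4 h.

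*Hspb8*, the small heat shock protein that works with BAG3 (chr5:116859063-116859122), had an intensity of 6364 in the control, 16987 at 4 h, 8064 at 20 h and 7896 at 32 h. Its log2 ratio at 4 h, 1.70 ± 0.20, was the highest measured among the 11 probes, and 2.02% of all measured probes had a higher one. It stayed past 2-fold under all 5 other scalings, at 1.29 to 1.57. By 20 h the log2 ratio was 0.01 ± 0.20, which the 75th percentile of the commonly detected probes turned to just below 0, and at 32 h it was 0.13 ± 0.20.

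*Hspb1*, a small heat shock protein that also binds actin (chr5:136365366-136365425), had dim signals throughout, with intensities of 8.30 in the control, 48.9 at 4 h, 14.8 at 20 h and 9.76 at 32 h. The probe was well above background only at 4 h, so the other 3 values have no order. Taken over the dimmest signal of the control array that was well above background, the level at 4 h was at least 1.45-fold higher. This bound was between 1.04-fold and 1.33-fold under the other scalings. The probe begins with the following 30 bases, shown with those of the *Hspb8* and *Hsp90aa1* probes, which gave the highest ratios at 4 h.
*Hspb1* probe: gctcttttgatacatacatttacctgctgt
*Hspb8* probe: gggaggtttttcttcatcttatctgggtga
*Hsp90aa1* probe: ttgtgaatggaaataacagtgcccaatcac

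*Cryab*, the alpha-B crystallin gene of lens and muscle that many stressed cells also express, was read by a pair of probes whose positions start 3108 bases apart on the genome and 417 bases apart in the transcript. They begin as follows, and are shown because their ratios differ in size.
A_55_P1964408 (chr9:50564566-50564625): agaagcctgctgtcgccgcagcccctaaga
A_55_P2007656 (chr9:50561458-50561517): agttcttcggagagcacctgttggagtctg

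A_55_P1964408 had intensities of 781 in the control, 402 at 4 h, 766 at 20 h and 680 at 32 h. Its log2 ratios were -0.68 ± 0.21, -0.36 ± 0.21 and -0.38 ± 0.21 at 4 h, 20 h and 32 h, of which the first passed 2 spot errors. At 4 h it lay between -1.08 and -0.70 under the other scalings and was past 2-fold with the median and the spike-in controls. At 20 h it lay between -0.37 and -0.03, the latter in unscaled values, and at 32 h between -0.39 and -0.20.

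A_55_P2007656 had intensities of 139 in the control, 46.5 at 4 h, 85.9 at 20 h and 95 at 32 h, with spot errors of 11.7% to 16.4%. Its log2 ratios were -1.30 ± 0.29 at 4 h, -1.03 ± 0.26 at 20 h and -0.73 ± 0.27 at 32 h, so that the control was the high array on this probe. At 4 h it stayed past 2-fold under all 5 other scalings (-1.75 to -1.42), and at 20 h, where it lay just past the threshold, under 1 of the 5 (-1.04 to -0.70). Normexp background correction, whose added offset of 50 is about the size of this signal, gave -0.58 at 4 h and -0.70 at 20 h, both under 2-fold.

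Both probes were lower than in the control at all 3 times and under all 5 other scalings. Their log2 ratios at 4 h differed by 0.62 ± 0.36 and those at 20 h by 0.67 ± 0.33, which is 1.74 and 2 errors of the difference, so a difference between the probes was not settled by the spot error. On GRCm38 the RefSeq span of *Cryab* (chr9:50745951-50756636) contains the gene of another small heat shock protein, *Hspb2* (chr9:50751072-50752354), whose own probe was well above background only at 20 h. As *Cryab* is a muscle gene too, muscle markers were read beside it. None of the 7 was well above background in the control, at 20 h or at 32 h, and 2, *Myh7* and *Tnnt2*, were at 4 h, where *Cryab* was lowest. The sum of their signals, in units of the array's 75th percentile, was 0.131 in the control, 0.307 at 4 h, 0.0799 at 20 h and 0.106 at 32 h, and *Myod1*, *Myog*, *Ckm*, *Des* and *Myh6* were not well above background on any array. The part of these signals in the *Cryab* values was not tested.

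*Bag3*, which links HSP70 and the small heat shock proteins to autophagy (chr7:135690281-135690340), had an intensity of 10426 in the control, 13761 at 4 h, 13476 at 20 h and 13295 at 32 h. The log2 ratio at 4 h was 0.68 ± 0.20, past 2 spot errors and between 0.28 and 0.56 under the other scalings. It was 0.04 ± 0.20 at 20 h and 0.17 ± 0.20 at 32 h.

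**Figure D2:**
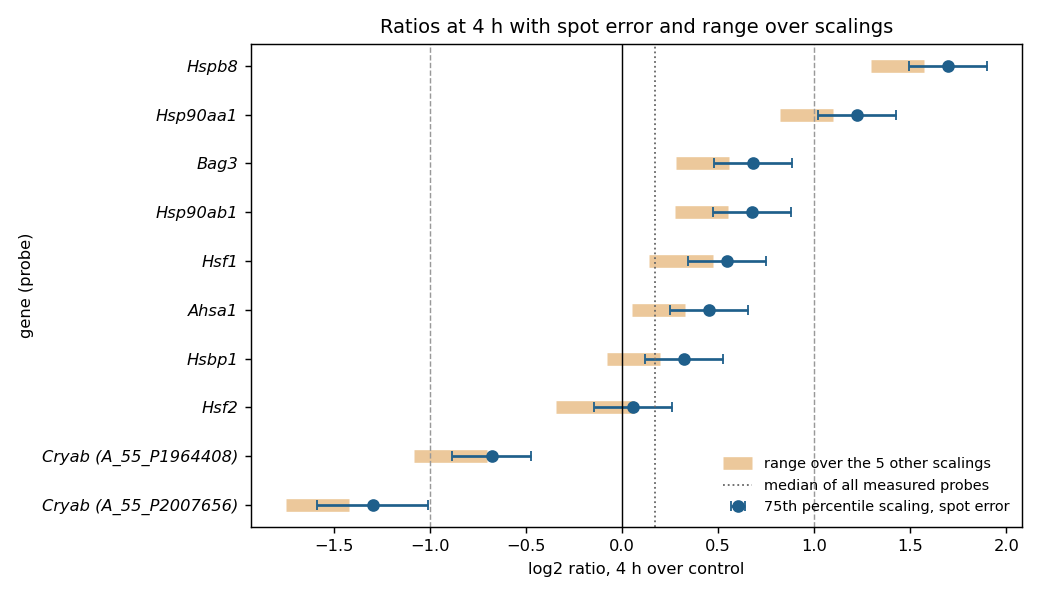
Log2 ratio of 4 h over control (horizontal axis) for the 10 member probes measured on both arrays, with the spot error (blue) and the range over the 5 other scalings (orange); dashed lines mark 2-fold and the dotted line the median of all measured probes. The ratios run from -1.30 for 1 *Cryab* probe to 1.70 for *Hspb8*, and the other scalings move every probe to the left or leave it nearly in place.

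As a group at 4 h, 2 of the 11 probes (18.2%) were at least 2-fold higher, against 11.1% of the 23960 probes on the array that could be compared. In the other direction it was 1 of 11, against 8.13%, and in either direction 3 of 11, against 19.3%. With so few probes these shares were near the background. The split between higher and lower probes, 2 to 1, became 1 to 2 with median and with spike-in scaling and 1 to 1 with quantile normalization and without scaling. Beyond 2 spot errors, 6 probes were higher (*Hspb8*, *Hsp90aa1*, *Bag3*, *Hsp90ab1*, *Hsf1* and *Ahsa1*), against 31% of all measured probes, and 2 were lower (both of *Cryab*), against 21.1%. The 2 lower probes stayed so under all 5 other scalings, while the number of higher ones became 2 (*Hspb8* and *Hsp90aa1*) after scaling by the median or the spike-in controls and in unscaled values, 4 with quantile normalization and 5 with the 75th percentile of the commonly detected probes. These other scalings also lowered the median of all measured probes. The shares of 31% and 21.1% hold for the 75th percentile scaling only, so the changed counts have no background beside them. The median log2 ratio of the 10 measured probes was 0.50, beside 0.17 for all 20392 measured probes, of which 60.2% were above 0.

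At 20 h, none of the 10 probes that could be compared was at least 2-fold higher, against 1.35% of all probes, and 1 was lower, against 3.3% (4.64% in either direction). At 32 h none was past 2-fold, where 2.07% of all probes were higher and 2.59% lower (4.65% in either direction). The medians of the member probes, -0.095 and -0.060, lay near those of all measured probes, -0.003 and -0.006. Between 20 h and 32 h no member probe differed by more than 2 spot errors, with log2 ratios of 20 h over 32 h from -0.30 to 0.24, as 3.95% of all measured probes did, while 0.88% of all probes were at least 2-fold higher and 1.88% lower at 20 h (2.76% in either direction).

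**Figure D3:**
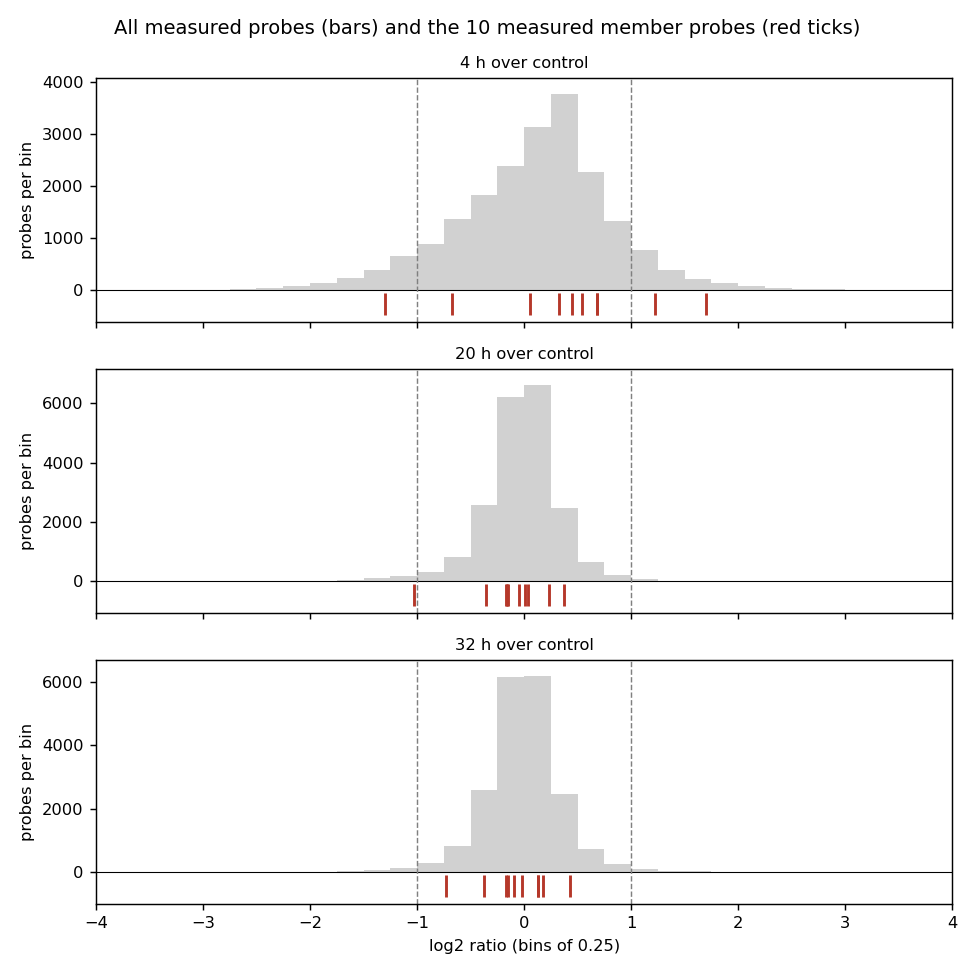
Number of measured probes in each bin of 0.25 of the log2 ratio (bars) at 4 h, 20 h and 32 h over the same control, with the 10 measured member probes as red ticks below; dashed lines mark 2-fold. All probes spread more widely at 4 h than later (robust SD 0.613, against 0.279 and 0.281), and the member ticks spread with them.

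Related genes were read in 6 lists, each by its brightest probe. Across all genes with a probe that could be compared, 11% were at least 2-fold higher and 8.21% lower at 4 h, 1.44% and 3.51% at 20 h, and 2.24% and 2.77% at 32 h. The heat-inducible targets of HSF1 in other chaperone families had 12 genes read here, of which 3 were at least 2-fold higher at 4 h and none lower. These were *Dnajb4*, an HSP40 co-chaperone, at a log2 ratio of 1.74 ± 0.21 (3.33-fold), *Ubb*, a ubiquitin precursor gene, at 1.10 ± 0.20, and *Hspa4*, an HSP110-type exchange factor, at 1.24 ± 0.20. Another probe of *Ubb* gave 0.87, under 2-fold, and other probes of *Hspa4* gave 0.24 and 0.39. The count of 3 fell to 2 (*Dnajb4* and *Hspa4*) with the 75th percentile of the commonly detected probes and to 1 (*Dnajb4*) under the other 4 scalings. The median of the list was 0.58, beside 0.17 for all 15806 genes measured. Above 0 were 11 of the 12 genes, and 60.2% of all measured probes of the array. Of these 11 genes, *Hsph1* stayed above 0 under 1 of the 5 other scalings and *Hspe1* under 4. No gene of the list was past 2-fold at 20 h or 32 h, with list medians of 0.027 and 0.113. Under the other scalings the list's median at 4 h was between 0.17 and 0.45, and that of all genes between -0.23 and 0.05.

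Among 22 genes of HSP90 paralogs and co-chaperones, none was 2-fold higher at 4 h and 2 were lower, and the median log2 ratio of 0.18 was close to that of all genes. The probes of *Ppid*, an immunophilin of the cyclophilin family, disagreed, with 0.26 ± 0.20 for the brightest, 0.35 ± 0.20 and 0.97 ± 0.20 for others, and 1.10 ± 0.20 for 1 that was past 2-fold. The lower genes were *Fkbp5*, an immunophilin of steroid receptor complexes, at -1.48 ± 0.20, and *Aarsd1* at -1.06 ± 0.20. None was past 2-fold at 20 h. At 32 h 1 gene was, *Ahsa2*, a relative of *Ahsa1*, which exceeded the control by at least 6.62-fold, where it was not well above background.

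Of 10 genes that act with BAG3 and HSPB8 in selective autophagy, 2 were at least 2-fold higher and 2 lower at 4 h. Among all genes these shares were 11% and 8.21%, and a list of 10 is too short to set apart from them. The median of the list was 0.27, beside 0.17 for all genes measured. *Sqstm1*, the autophagy receptor p62, was 4.41-fold higher (2.14 ± 0.20), and *Ywhag*, a 14-3-3 protein, had a log2 ratio of 1.19 ± 0.20. *Flnc*, a filamin that BAG3 clears when damaged, was lower at -1.14 ± 0.20. *Synpo2*, a BAG3 binding partner, was at least 2.44-fold lower on its brightest probe, while of its other probes 1 passed the background flag at 4 h alone and 1 on no array. At 20 h the brightest probes of *Synpo* (-1.14 ± 0.068) and *Synpo2* were past 2-fold, both lower, and at 32 h that of *Synpo2* was, by its bound. After spike-in scaling or in unscaled values, *Synpo* at 20 h and *Synpo2* at 32 h were under 2-fold. The probes of *Synpo* disagreed, since another one had log2 ratios of 0.41 ± 0.26, 0.29 ± 0.26 and 0.30 ± 0.27 at 4 h, 20 h and 32 h, and a further one was at least 2.32-fold higher at 4 h. With median and with spike-in scaling, 1 gene of the list was higher at 4 h, *Sqstm1*, and 4 were lower.

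In the other lists few genes could be read. Of the BAG family without *Bag3*, 5 genes were compared, 1 was lower at 4 h, *Bag4*, at -1.02 ± 0.23, and none was past 2-fold later. Of 8 genes listed here as other small heat shock proteins, 3 could be compared at 4 h (*Hspb6*, *Hspb9* and *Hspb11*), with log2 ratios of -0.41, 0.23 and -0.12. None of the list was past 2-fold at any time. In the HSF family, *Hsf3*, *Hsf5*, *Hsf2bp* and *Hsfy2* were not well above background on any array, and *Hsf4* had a log2 ratio of -0.16 ± 0.28 at 4 h. *Hsbp1l1*, a relative of *Hsbp1*, was well above background only in the control and was at least 2.44-fold, 2.74-fold and 2.11-fold lower at 4 h, 20 h and 32 h, of which the last bound was under 2-fold after spike-in scaling or in unscaled values.

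**Figure D4:**
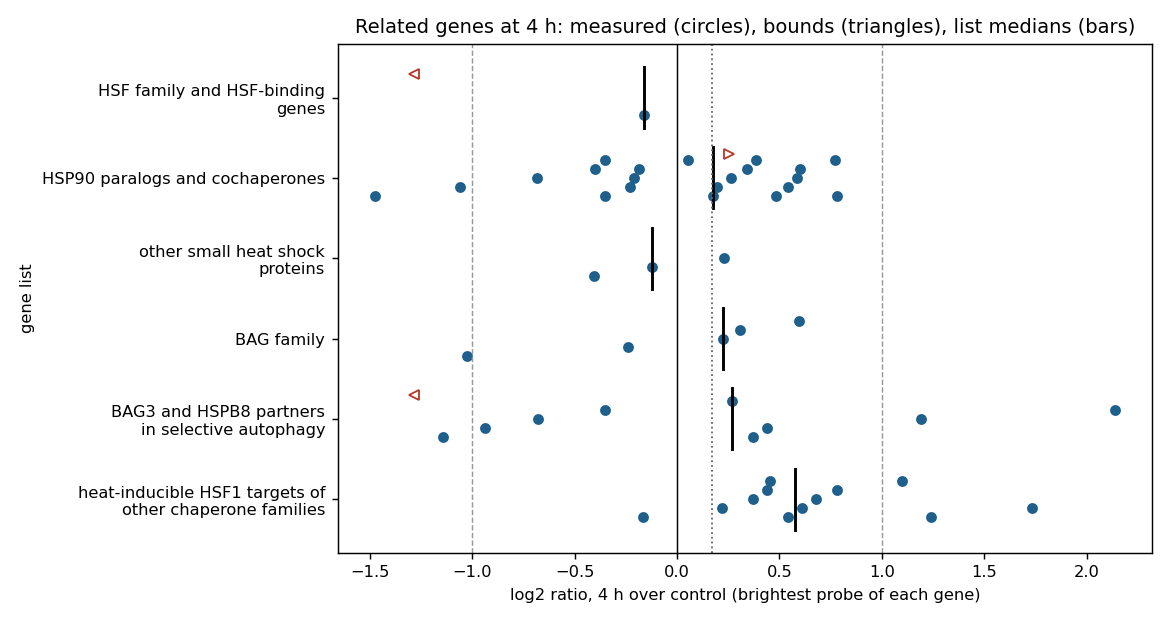
Log2 ratio of 4 h over control (horizontal axis) for the brightest probe of each gene in the 6 related lists; circles are measured ratios, open triangles are bounds that point away from 0, black bars are the medians of the measured ratios, dashed lines mark 2-fold, and the dotted line is the median of all measured probes. The HSF1 targets lie mostly to the right of that line with a median of 0.58, and the HSP90 list is spread around it with 0.18.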

How the data were processed

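Per the labels and file headers, the authors deposited, for each spot, the processed intensity of Agilent Feature Extraction 10.7.3.1, with background subtracted, and a table in which each array's intensities were divided by 1 constant. For each probe, the deposited intensities of the unflagged spots were averaged as log2 values, from which the array's 75th percentile was subtracted. A probe was well above background where at least 50% of its spots carried that flag. A ratio was measured where both arrays passed. Where 1 did, the ratio is a bound, for which the dim array was set to its dimmest signal well above background, or to the probe's own signal if higher. The threshold was 2-fold. SAM, which the methods name, could not be run on 1 array per group.

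The named genes were every probe of the 10 members, the related genes past 2-fold in any comparison with the control, and the 5 probes nearest to *Hspb8* in their 3 ratios. Other genes of the HSF and small heat shock protein lists, *Hspa4l*, *Hsph1*, *Hspe1*, and *Ppid*, whose probes disagreed, were named after their values were seen. Members and lists were chosen with earlier results of these data known, and 1 gene of the HSF1 target list is not reported here. Probe positions (mm9) are those of the files, and exons and UTRs were not used here. Alternatives were 5 other scalings, normexp background correction, other detection rules, flagged spots kept, 1 probe per gene, 1.5-fold and 3-fold thresholds, and the deposited table. The steps were tested on simulated large changes in bright probes, which does not cover dim probes or changes near 2-fold. Python 3.11.15, numpy 2.4.6, pandas 2.3.3 and limma 3.58.1 in R 4.3.3 were used.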

Additional observations from a re-analysis of the deposited data

How the results depend on the processing

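No paired analysis was possible because each group had 1 array, and no replicate could be left out. The number of member probes past 2-fold in either direction was 3 at 4 h, 1 at 20 h and 0 at 32 h. At 20 h it became 0 with median scaling, quantile normalization, spike-in scaling, no scaling, normexp correction, the brightest probe of each gene and a threshold of 3-fold. At 4 h it was 6 at 1.5-fold, 1 at 3-fold, 2 with quantile normalization, no scaling, normexp correction (2 higher) or the brightest probe (2 higher), and 4 without a detection filter or with the flag for positive and significant signals, and at 32 h it was 1 at 1.5-fold. The share of all 39429 probes, detected or not, moved with these settings. At 4 h it was 11.7% with the main settings, 24.8% at 1.5-fold and 4.15% at 3-fold. It was 11.9% with quantile normalization, 12% without scaling, 6.93% with normexp correction and 20.7% without a detection filter. At 20 h it was 2.63%, 1.28% with normexp correction and 0.834% at 3-fold, and at 32 h it was 7.19% at 1.5-fold. Without a detection filter, *Hspb1* at 4 h had a log2 ratio of 2.84 in place of a bound of 0.54. Of 440 measured ratios of single probes recomputed under the 11 of 14 alternatives that give them, 393 moved by less than the spot error, 47 moved by more, and none past 2-fold changed sign. The bound of *Hspb1* has no spot error and was between 0.05 and 0.42 under the other scalings. Signal over background limits *Hspb1* and the *Cryab* probe A_55_P2007656.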

Other observations

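Of the 17144 named probes that passed the background flag on all 4 arrays, 36 lay within 1 spot error (0.204) of *Hspb8* over the 3 log2 ratios to the control. The 5 nearest by Euclidean distance were *2310008H09Rik* (0.0364), *Gt(ROSA)26Sor* (0.0518), *Rlim* (0.0662), a ubiquitin ligase, *Pde6g* (0.0721) and *1700080G18Rik* (0.08). Their log2 ratios at 4 h were between 1.63 for *Pde6g* and 1.71 for *1700080G18Rik*. The 3 ratios share the control array. *Ahsa2*, at least 6.62-fold above the control at 32 h, was also at least 8.42-fold higher at 32 h than at 20 h, where it was not well above background. *Hspa4l*, a relative of *Hspa4* named after its values were seen, had log2 ratios of -0.16 ± 0.20 at 4 h, 0.66 ± 0.20 at 20 h and 0.74 ± 0.20 at 32 h.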
